A study of Mus musculus with 3 samples.

Results

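In molars of 25-day-old mice, cells carrying tdTomato RNA without Col1a1-GFP RNA were compared with cells carrying Col1a1-GFP RNA without tdTomato RNA. Of 15912 barcodes in the 3 libraries of the series, 6693 came from the P25 library, which holds all cells described here. Its mice had the genotype Col1a1-GFP; Cxcl12-creER; R26R(tdTomato/+). Cells of the dissociated pulp and periodontium of mandibular molars were sorted for GFP, tdTomato or both, and their RNA was counted with the 10x Genomics 3' v3 chemistry. A barcode was eligible with at least 500 genes, at most 15% mitochondrial UMIs and no UMI of Ptprc, Pecam1 or Epcam, which mark blood, endothelial and epithelial cells. A UMI is a molecular tag that counts 1 captured RNA molecule. Of 4768 eligible cells, 1104 (23.2%) had at least 5 tdTomato and under 5 eGFP UMIs, and are called tdTomato-only. The reverse held for 1883 cells (39.5%), called GFP-only, while 421 cells had at least 5 UMIs of both reporters and 1360 had fewer of both. The cells were thus chosen by their reporter UMIs, and reporter levels are given as a description.

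The comparison rests on 1 library, so no value has a replicate error and no test across mice was possible. All intervals are exact 95% intervals, and the limit given beside a count of 0 is 3 counts of the total. Both cover counting error only. The labels used here give neither the number of mice nor the day of tamoxifen. The sums behind the values were 16189862 UMIs for tdTomato-only cells and 36370241 UMIs for GFP-only cells. A tdTomato-only cell had a median of 13289 UMIs and 3653 genes, and a GFP-only cell had 17523 UMIs and 3870 genes. The P25 library shared 1 barcode with one P6 library and 5 with the other.

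CXCL12 is a secreted chemokine that holds haematopoietic and other CXCR4-bearing cells near stromal cells, and it is abundant in perivascular stroma of bone marrow. In a Cxcl12-creER mouse, cells that express Cxcl12 when tamoxifen is given recombine the R26R locus, and they and their daughters then keep making tdTomato. Col1a1-GFP instead reports present activity of a type I collagen promoter, which is high in osteoblasts, odontoblasts, cementoblasts and ligament fibroblasts. The pair of reporters thus sets a mark of past Cxcl12 expression against a mark of present matrix production.

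Cxcl12 lies on chr6:117168535-117181367 (plus strand, GRCm38, GENCODE M21) and Col1a1 on chr11:94936224-94953042 (plus strand). Promoters are shown for Cxcl12, whose name the creER driver carries, and for Bglap and Spp1, 2 of the 12 genes furthest towards GFP-only cells. Each window runs from 250 bases before to 50 bases after the RefSeq start (GRCm38.p6), read 5′ to 3′ on the gene's strand. Their windows are chr6:117168285-117168584 (plus) for Cxcl12, chr3:88384417-88384716 (minus) for Bglap and chr5:104434861-104435160 (plus) for Spp1, the upstream of its 2 windows. Capitals mark matches on either strand to any of 3 motifs. GGGCGG is the GC box bound by SP factors. TATAAA is the TATA box of the basal machinery. AACCACA is a core of RUNX sites, where RUNX2 of osteoblasts binds.
Cxcl12: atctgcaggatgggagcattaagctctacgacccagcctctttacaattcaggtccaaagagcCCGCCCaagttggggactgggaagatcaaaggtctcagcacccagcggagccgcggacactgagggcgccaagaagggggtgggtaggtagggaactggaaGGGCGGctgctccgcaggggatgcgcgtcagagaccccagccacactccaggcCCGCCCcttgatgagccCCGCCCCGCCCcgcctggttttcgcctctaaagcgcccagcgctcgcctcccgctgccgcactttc
Bglap: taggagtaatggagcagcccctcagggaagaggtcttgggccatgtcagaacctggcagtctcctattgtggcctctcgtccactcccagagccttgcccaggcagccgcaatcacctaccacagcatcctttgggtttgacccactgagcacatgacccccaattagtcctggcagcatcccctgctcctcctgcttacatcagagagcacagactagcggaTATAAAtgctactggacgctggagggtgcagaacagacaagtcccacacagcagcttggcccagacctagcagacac
Spp1: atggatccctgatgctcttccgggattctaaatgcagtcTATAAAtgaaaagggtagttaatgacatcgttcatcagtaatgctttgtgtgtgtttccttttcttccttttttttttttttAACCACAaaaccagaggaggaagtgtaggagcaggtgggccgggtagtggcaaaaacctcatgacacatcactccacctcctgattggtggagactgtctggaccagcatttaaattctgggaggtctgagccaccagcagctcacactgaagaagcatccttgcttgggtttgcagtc

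The Cxcl12 window held 5 GC boxes, of which the last 2 overlap by 1 base, and neither of the other motifs. Bglap held a TATA box starting at position -27 from the RNA start, no GC box and no RUNX core. Spp1 held a RUNX core at -129, a TATA match at -211 and no GC box. Of 32851 promoter windows in the table, 35.7% held the GC box letters, 13.6% the TATA letters and 5.27% the RUNX letters. Of the 12 genes furthest towards GFP-only cells, 8 had a window in the table, and 5 of those 8 held TATA letters, 2 a GC box and 2 a RUNX core. Of the 12 furthest towards tdTomato-only cells, 7 had a window, with TATA letters in 2, a GC box in 2 and a RUNX core in 1. These counts take a gene with a match in any of its 1 to 3 windows, whereas the shares above are per window, so they cannot be set against each other. A match is a run of letters and not a shown binding site.

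The reporters parted the cells over a wide range of UMIs. A tdTomato-only cell held a median of 20 tdTomato UMIs (quartiles 13 and 30, highest 104), and 284 of the 1104 cells (25.7%) held at least 1 eGFP UMI. A GFP-only cell held a median of 28 eGFP UMIs (quartiles 14 and 54.5, highest 764), and 703 of the 1883 cells (37.3%) held a tdTomato UMI. Macrophage-gated cells of the library, with Ptprc and at least 20 C1qa, C1qb and C1qc UMIs, served as a background: 34.6% of 289 such cells held a tdTomato UMI and 30.8% an eGFP UMI, at a median depth of 15272 UMIs. A macrophage-gated cell held a median of 0 UMIs of either reporter, and the highest held 86 tdTomato and 66 eGFP UMIs. Just inside the tdTomato threshold lay 25 cells with 5 UMIs and 1362 CPM of Cxcl12 (CPM, the summed UMIs of a gene scaled to a common total), and just outside it 23 cells with 4 UMIs and 311 CPM. Just inside the GFP threshold lay 49 cells with 5 UMIs and 20363 CPM of Col1a1, and just outside 90 cells with 4 UMIs and 24102 CPM.

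**Figure D1:**
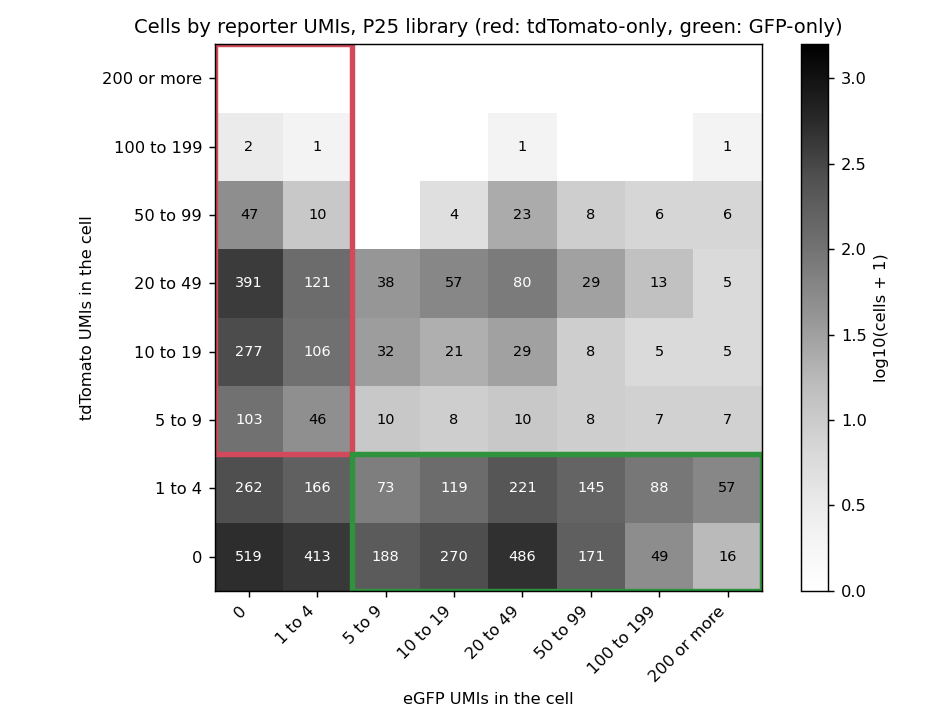
Eligible cells of the P25 library by tdTomato UMIs (vertical axis) and eGFP UMIs (horizontal axis). Each square gives its number of cells, with shading by log10(cells + 1). The red frame encloses the 1104 tdTomato-only cells and the green frame the 1883 GFP-only cells, and 519 cells had no UMI of either reporter.

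Between tdTomato-only and GFP-only cells, the gene behind each reporter differed in the direction of its reporter. Cxcl12 stood at 679 CPM (666 to 692) in tdTomato-only and 104.6 CPM (101.3 to 108.0) in GFP-only cells, 6.49-fold higher in the former (6.25 to 6.74). The log2 ratio of 2.69 depended on the reporter threshold, at 1.79 with 2 UMIs and 3.24 with 10 UMIs in place of 5. A tdTomato-only cell held a median of 3 Cxcl12 UMIs (quartiles 1 and 10, highest 290), and a GFP-only cell 0 (quartiles 0 and 1, highest 59). With every cell thinned to 1000 UMIs, 32.7% of tdTomato-only cells (29.9% to 35.6%) and 8.40% of GFP-only cells (7.18% to 9.74%) kept a Cxcl12 UMI, beside 2.08% of macrophage-gated cells. No tdTomato-only and 1 GFP-only cell was too shallow to thin. Without thinning the shares were 75.2%, 43.2% and 20.1%. Cells with both reporters stood at 191 CPM and cells with neither at 503 CPM, so Cxcl12 did not follow the tdTomato mark across all sets.

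Cxcl12 RNA was unevenly spread within the tdTomato-only cells. A cluster of 20 of them, marked by Adipoq, Hp, Kitl and Lepr, held 32.2% of all their Cxcl12 UMIs, and 274 of the 1104 had none. Without that cluster the log2 ratio of tdTomato-only over GFP-only cells was 2.15, against 2.69 with it. Among all 4768 eligible cells, the share with at least 5 tdTomato UMIs was 24.4% of the 2039 cells without a Cxcl12 UMI, 29.0% of the 1110 with 1 to 2 and 40.7% of the 922 with 3 to 9. It was 46.0% of the 644 with 10 to 49 and 64.2% of the 53 with 50 or more. The median depths of these cells were 15780, 16792, 14429, 11211 and 10915 UMIs in the same order, and the part of depth was not tested.

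RNA of the iCreER sequence, taken here as the driver, was scarce. iCreER UMIs numbered 214 in 82 tdTomato-only cells (7.43%, 5.95% to 9.14%) and 7 in 3 GFP-only cells (0.159%, 0.0329% to 0.465%). It was seen in 23 of the 421 cells with both reporters and in 10 of the 1360 with neither. No macrophage-gated cell had a UMI, which allows a share of up to 1.04% of such cells with a UMI. Of the iCreER UMIs in tdTomato-only cells, 36.4% lay in the cluster led by Pmch and Sfrp2. A further sequence, CreER-WPRE, had 5 UMIs in tdTomato-only cells, 2 in cells with both reporters and 0 in GFP-only cells (up to 0.159% of them). The label Cxcl12-creER does not say which sequence the driver carries.

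Col1a1, the main chain of type I collagen, was high in both sets. It stood at 18263 CPM in tdTomato-only and 43055 CPM in GFP-only cells, 2.36-fold higher in the latter (2.35 to 2.37). The median cell held 67 Col1a1 UMIs in the first set (quartiles 15 and 278) and 526 in the second (quartiles 149 and 1241). Macrophage-gated cells held a median of 5. After thinning 86.3% of tdTomato-only and 98.1% of GFP-only cells kept a Col1a1 UMI, beside 37.7% of macrophage-gated cells, and without thinning 99.4%, 99.9% and 99.7%. Cells with both reporters stood at 39947 CPM of Col1a1 and cells with neither at 23393 CPM, the latter above tdTomato-only cells. The partner chain Col1a2 was 2.50-fold higher in GFP-only cells.

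The library held cells of both sexes. Of tdTomato-only cells 476 had Xist and no Y-linked UMI and 457 the reverse, and of GFP-only cells 997 and 659, so 51.0% and 60.2% of the sexed cells were Xist-marked. Cells with both marks numbered 45 and 69. Among Xist-marked cells alone the Cxcl12 log2 ratio was 2.82 and that of Col1a1 -1.10, and among Y-marked cells 2.65 and -1.39. The set difference in both genes was therefore present in cells of either mark.

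The sets filled different clusters of cells. The 4768 eligible cells fell into 25 clusters, built without the reporters, Cxcl12 and Col1a1. Of the 2987 cells of the sets, 1733 (58.0%, 56.2% to 59.8%) lay in clusters where 1 set made up at least 90% of them. That share was 46.7% at a coarser and 55.6% at a finer resolution. A cluster took a name only where at least 3 fixed markers of a type were raised and led it. The others are called by their leading genes, and their Cxcl12 and Col1a1 levels below are over all eligible cells of the cluster.

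GFP-only cells outnumbered tdTomato-only cells in several large clusters. The largest was a periodontal ligament-like cluster (cluster 0, led by Sema3c, C1qtnf3, Lrrc15 and Tnn) with 392 GFP-only and 37 tdTomato-only cells. The periodontal ligament is the collagen-rich tissue that slings the root to the alveolar bone. A pair of osteoblast or cementoblast-like clusters (8 and 13, led by Col2a1, Car3, Col11a2 and the Bglap genes) held 178 and 124 GFP-only cells against 2 and 1 tdTomato-only cells. Cluster 5, led by Spp1, Mepe and Dmp1, held 196 GFP-only cells and 0 tdTomato-only cells, which allows up to 0.272% of the latter. Cluster 24, led by Ptprz1, Dmp1, Dock9 and Phex and with Sost among its 10 leading genes, held 21 and 0. Cluster 2 (Col5a3, Heyl and type VI collagen genes) held 235 and 14, and cluster 7 (Fgf9, Pthlh, Bmp8a) 166 and 19. Other clusters were less uneven. Cluster 6, led by Pappa2 and Tnmd, held 144 GFP-only cells (7.65% of the set) and 47 tdTomato-only cells (4.26%). The odontoblast-like cluster 11 held 62 (3.29%) and 31 (2.81%), so it took near-equal shares of both sets. It also held 62 of the cells with both reporters (14.7% of those). Most of its cells in either set had no Dspp UMI, as given below, so these are not counts of Dspp-bearing odontoblasts.

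tdTomato-only cells were the majority in other clusters. Cluster 1, led by Pmch, Sfrp2, Gpha2 and Aqp5, held 239 of them, 21.6% of the set, against 17 GFP-only cells. Its Cxcl12 level was 318 CPM. Cluster 15 (Col26a1, Aox3, Tac1) held 89 against 7, at only 56.8 CPM of Cxcl12, so a cluster could be largely tdTomato-only with little present Cxcl12 RNA. iCreER RNA was nonetheless present there, with a UMI in 14 of those 89 cells. Cluster 4 (Apod, Nr0b1, with the pulp marker Cldn10) held 115 against 47 and cluster 10 (Inmt, Dio3) 98 against 23, at 1088 and 1736 CPM. An iCreER UMI was seen in 4 and 5 of their tdTomato-only cells. It was seen in 26 of the 239 in cluster 1 and 8 of the 20 in the bone marrow stroma-like cluster given below. A dental pulp-like cluster (14) had 3560 CPM of Cxcl12, yet 100 of its 131 cells carried neither reporter and only 11 were tdTomato-only and 19 GFP-only. The median depth of cluster 14 was 6011 UMIs, against 13289 UMIs in tdTomato-only cells. The part of depth in its reporter calls was not tested. As called by at least 5 UMIs, the tdTomato mark was thus not the same selection of cells as high Cxcl12 RNA.

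Cells outside the tooth mesenchyme stood mostly on the tdTomato-only side. The clusters were connective tissue fibroblast-like (90 tdTomato-only against 1 GFP-only cell), Schwann and glia-like (36 against 1), mural-like (33 against 0) and bone marrow stroma-like (20 against 0, at 16938 CPM of Cxcl12). A further epithelial-like cluster held 13 against 13, an unnamed one led by Elane and Prtn3 5 against 1, and an erythroid-like one 1 against 3. The label calls the sorted cells mesenchymal, which the glia-like, epithelial-like and erythroid-like clusters go against. The epithelial-like cluster had a median depth of 1720 UMIs.

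**Figure D2:**
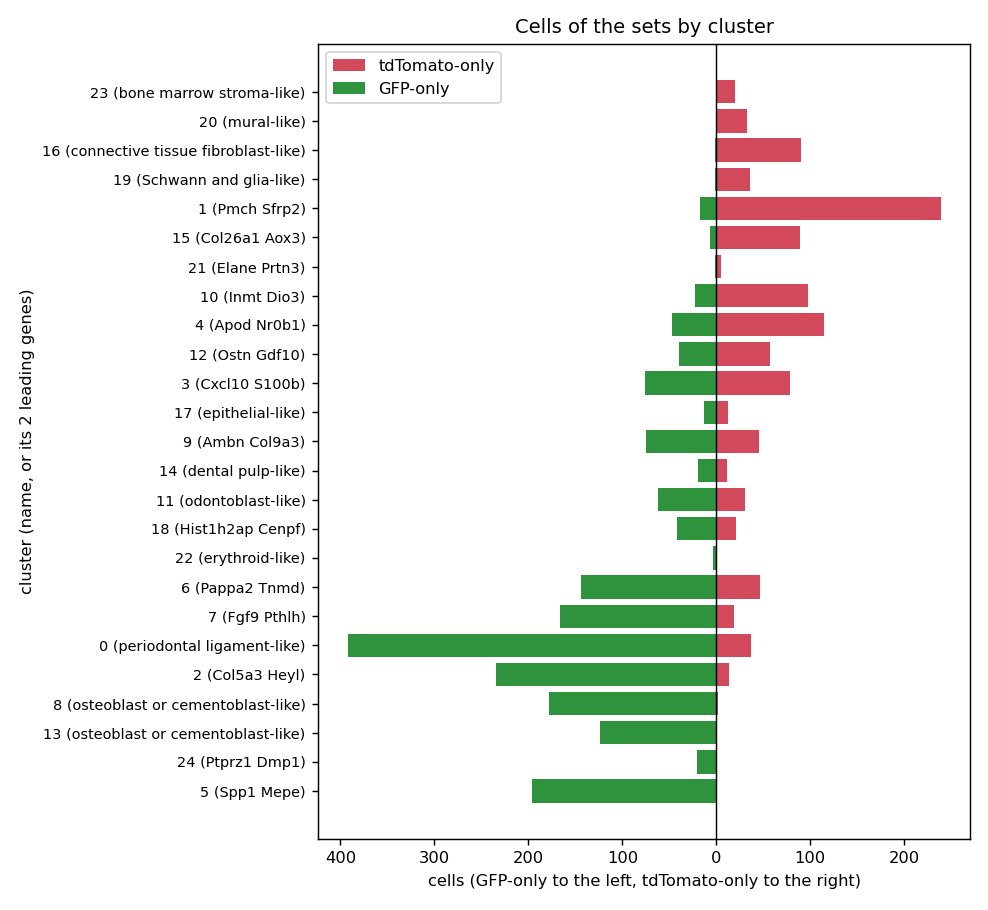
Number of tdTomato-only cells (red, to the right) and GFP-only cells (green, to the left) in each of 25 clusters, ordered by the tdTomato-only share. Clusters 5, 8, 13 and 24 at the bottom held almost no tdTomato-only cells, and clusters 16, 19, 20 and 23 at the top almost no GFP-only cells.

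Over the whole sets, 6232 genes reached 20 CPM in the higher set. Of these, 401 (6.43%) were at least 2-fold higher in tdTomato-only and 118 (1.89%) at least 2-fold higher in GFP-only cells, on a log2 scale with 1 CPM added. The median gene had a log2 ratio of 0.24 towards tdTomato-only cells. With that median set to 0 the counts were 301 and 171. Among Xist-marked cells 6.40% and 2.07% of genes passed, and among Y-marked cells 6.58% and 2.06%.

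The 12 genes furthest towards GFP-only cells included the 3 Bglap genes. Bglap, on chr3:88383501-88384464, encodes osteocalcin, the main Gla protein of bone. It stood at 27618 CPM in GFP-only and 1328 CPM in tdTomato-only cells, 20.8-fold apart (20.5 to 21.1), beside 543 CPM in macrophage-gated cells. A median tdTomato-only cell had 3 Bglap UMIs, as did a median macrophage-gated cell, whereas a GFP-only cell had 18 (quartiles 3 and 312). Bglap2 (11900 against 705 CPM) and Bglap3 (1304 against 97.9 CPM) lie beside it and are near-identical copies, so reads may be split among the 3 genes and each value is uncertain.

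Genes of other matrix proteins were also among the 12. Spp1, osteopontin, stood at 11042 against 1143 CPM, 9.66-fold, with 76.4% of the GFP-only UMIs in cluster 5. Dmp1, an acidic phosphoprotein of osteocytes and odontoblasts, stood at 442 against 46.6 CPM. Col2a1 and Col11a2, chains of cartilage collagens, stood at 754 against 26.2 CPM and 438 against 46.4 CPM, and cluster 8 gave 53.3% of the Col2a1 and 39.7% of the Col11a2 UMIs of GFP-only cells. Of the 4 chondrocyte markers, Sox9 alone was higher in tdTomato-only cells (184 against 61.9 CPM), and Matn3 was near 0 in both sets.

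The remaining 5 have various roles. Dkk1, a secreted Wnt antagonist, stood at 51.9 against 1.36 CPM, a 38.2-fold difference (25.1 to 61.1) on 22 UMIs in tdTomato-only cells. Lipc, hepatic lipase, stood at 79.2 against 2.66 CPM, and Car3, a carbonic anhydrase, at 766 against 36.8 CPM. The transmembrane collagen Col13a1 stood at 313 against 26.0 CPM and was present in 67.6% against 11.1% of cells. Col22a1, a collagen of tissue junctions, stood at 107 against 6.86 CPM.

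The 12 genes furthest towards tdTomato-only cells had varied roles. Mfap4, a microfibril-associated glycoprotein, stood at 373 CPM in tdTomato-only and 18.2 CPM in GFP-only cells (20.5-fold, 18.9 to 22.3), with a UMI in 51.5% against 14.02% of cells. Cluster 1 gave 50.2% of its tdTomato-only UMIs. Igfbp4, which binds insulin-like growth factors, stood at 1785 against 247 CPM and had a UMI in 89.1% against 65.0% of cells. Its level in macrophage-gated cells was 370 CPM, above that in GFP-only cells. Igfbp3 stood at 526 against 48.7 CPM, with 68.6% of the tdTomato-only UMIs in cluster 1. Pcp4, a calmodulin regulator, stood at 269 against 23.9 CPM, and the imprinted non-coding RNA H19 at 55.0 against 1.76 CPM, both mostly from cluster 1 (54.5% and 60.04%).

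Several large differences came from 1 small cluster. Col14a1, a fibril-associated collagen, had the highest log2 ratio of the 12 (5.22, 64.0 against 0.742 CPM), and 93.2% of its tdTomato-only UMIs lay in the fibroblast-like cluster 16. The same cluster gave 89.0% of Mfap5 (192 against 8.85 CPM) and 74.5% of Itih5 (55.8 against 5.47 CPM). Krt14, a basal keratin (167 against 18.2 CPM), had 95.8% of its tdTomato-only UMIs in the 13 cells of the epithelial-like cluster, and its share of cells was alike, 10.5% and 10.6%. The methyltransferase Inmt (79.6 against 7.42 CPM) came mostly from cluster 10. Mgst1, a glutathione transferase, and Abi3bp, a matrix protein, stood 7.47-fold and 7.16-fold higher in tdTomato-only cells.

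**Figure D3:**
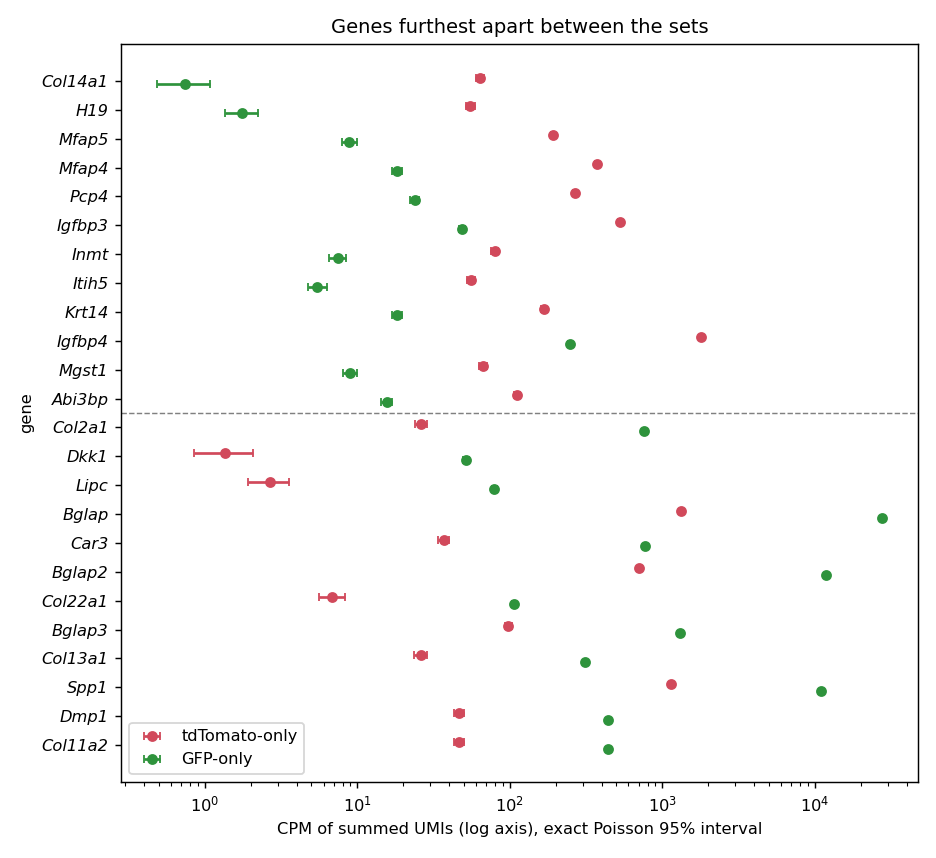
Levels of the 12 genes with the highest (top) and the 12 with the lowest (bottom) log2 ratio, as CPM of summed UMIs on a log axis with exact Poisson 95% intervals, in tdTomato-only (red) and GFP-only cells (green). Bglap reaches 27618 CPM in GFP-only cells, and Col14a1 lies below 1 CPM there.

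Gene groups were compared over the whole sets. As the sets filled different clusters, a group difference here need not hold among cells of 1 cluster. Counts without the clusters outside the tooth mesenchyme are given below only for niche factors, chemokines and mineral genes. For the other groups the part of cell types was not tested. A group is read against 6.43% and 1.89% of all genes and against the median of 0.24. Of 14 genes of mineral matrix and mineralisation at 20 CPM, 9 were at least 2-fold higher in GFP-only cells, with a median log2 ratio of -1.80. Ibsp, bone sialoprotein (6158 against 1811 CPM), Phex, a protease of phosphate control (173 against 32.2 CPM), and Ifitm5 (374 against 62.9 CPM) were among them. The 2 on the other side were the phosphate transporter Slc20a2 (164 against 49.1 CPM) and the carbonic anhydrase Car2. Of 19 osteogenic and odontogenic transcription factors, 1 (Msx2, 95.6 against 32.1 CPM in tdTomato-only cells) passed 2-fold and 0 passed it towards GFP-only. Sp7, a master regulator of osteoblasts, stood at 104 CPM in tdTomato-only and 164 CPM in GFP-only cells, within 2-fold.

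Collagens divided by type. Of 21 collagen genes, 6 were at least 2-fold higher in GFP-only cells and 5 in tdTomato-only cells, with a median of -0.60. The first comprised both type I chains, Col11a1, Col11a2, Col22a1 and Col24a1. The second comprised the basement membrane genes Col4a1 (151 against 28.7 CPM) and Col4a2, with Col8a1, Col14a1 and Col23a1. Of 22 genes of collagen processing and secretion, 3 (Lox, Loxl2 and Plod2, which cross-link or hydroxylate collagen) passed towards GFP-only cells and 2 (Loxl1 and Pcolce2) towards tdTomato-only cells. Of 24 elastic fibre and matricellular genes, 10 passed towards tdTomato-only cells, including Fbln1 (497 against 75.2 CPM), Fbn1 (275 against 80.7 CPM), the elastin gene Eln (107 against 29.3 CPM) and Tnxb, while Postn and Thbs3 passed towards GFP-only cells.

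Niche factors and chemokines were higher in tdTomato-only cells, but depended on the cells outside the tooth mesenchyme. Of 11 stem cell niche factors, 7 passed towards tdTomato-only cells (Kitl, Angpt1, Cxcl12, Igf1, Il6, Lepr and Vcam1) and Spp1 passed the other way, with a median of 2.08. Kitl, stem cell factor, stood at 48.3 against 5.53 CPM, and 31.1% of its tdTomato-only UMIs lay in the 20 marrow stroma-like cells. Of 10 chemokines, 8 passed towards tdTomato-only cells and 0 towards GFP-only, with a median of 1.98. Ccl11 (70.9 against 0.165 CPM) had 97.6% of its tdTomato-only UMIs in fibroblast-like cluster 16. Without the clusters outside the tooth mesenchyme, 3 niche factors and 3 chemokines passed towards tdTomato-only cells, and the medians were 0.88 and 0.57. Without the marrow stroma-like cluster alone, 5 chemokines passed. Under the first of these omissions 10 mineral genes still passed towards GFP-only cells.

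Growth factor pathways had members past 2-fold among ligands, antagonists, receptors and targets. Of 16 IGF and PDGF genes, 7 passed towards tdTomato-only cells: Igf1 (768 against 136 CPM), Igf2 (196 against 49.1 CPM) and the binding proteins Igfbp2 to Igfbp6. Of 18 BMP genes, 6 passed that way, among them the antagonists Grem1 (27.1 against 0.632 CPM) and Fst and the targets Id1 and Id4, and 2 (Bmp3 and Bmp8a) the other way. Of 18 Wnt genes, 6 passed towards tdTomato-only cells, including the antagonists Sfrp2 (1285 against 225 CPM), Wif1 (3036 against 1254 CPM), Sostdc1 and Frzb and the targets Nkd1 and Lef1, and 2 (Dkk1 and Wnt5b) towards GFP-only cells. Cluster 1 alone held 82.3% of the Sfrp2 UMIs of tdTomato-only cells. TGF-beta genes passed in 3 of 13 cases (Tgfbi, Tgfbr3 and Tgfb2) and Notch genes in 2 of 6 (Notch3 and Hey1), all towards tdTomato-only cells.

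Some groups showed little or followed a cell type. Of 5 hedgehog genes, 11 cell cycle genes and 5 osteoclast-regulating cytokines, 0 passed in either direction. FGF genes passed in 1 of 8 cases (Spry2). Of 7 contractile genes, 4 passed towards tdTomato-only cells (Myh11, Tagln, Acta2 and Myl9), and 98.7% of their Myh11 UMIs lay in the 33 mural-like cells, while 49.2% of Acta2 UMIs lay in cluster 1. Of 14 angiogenic and neurotrophic factors, 4 passed towards tdTomato-only cells (Angpt1, Nrp1, Ntf3 and Angptl4) and 4 towards GFP-only (Sema3d, Slit2, Nrp2 and Sema3c). Of 11 small leucine-rich proteoglycans, Prelp and Ogn passed towards tdTomato-only cells and Aspn and Podn towards GFP-only cells. Of 16 matrix proteases and inhibitors, 2 passed, Timp1 and Htra1, both towards GFP-only cells. Interferon and antigen presentation genes passed in 5 of 13 cases towards tdTomato-only cells, a count that was 1 with the reporter threshold at 2 UMIs. Of 21 immediate early and stress genes 3 passed, and of 12 glycolysis and hypoxia genes 2 (Ndufa4l2 and Pfkl), all towards tdTomato-only cells.

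**Figure D4:**
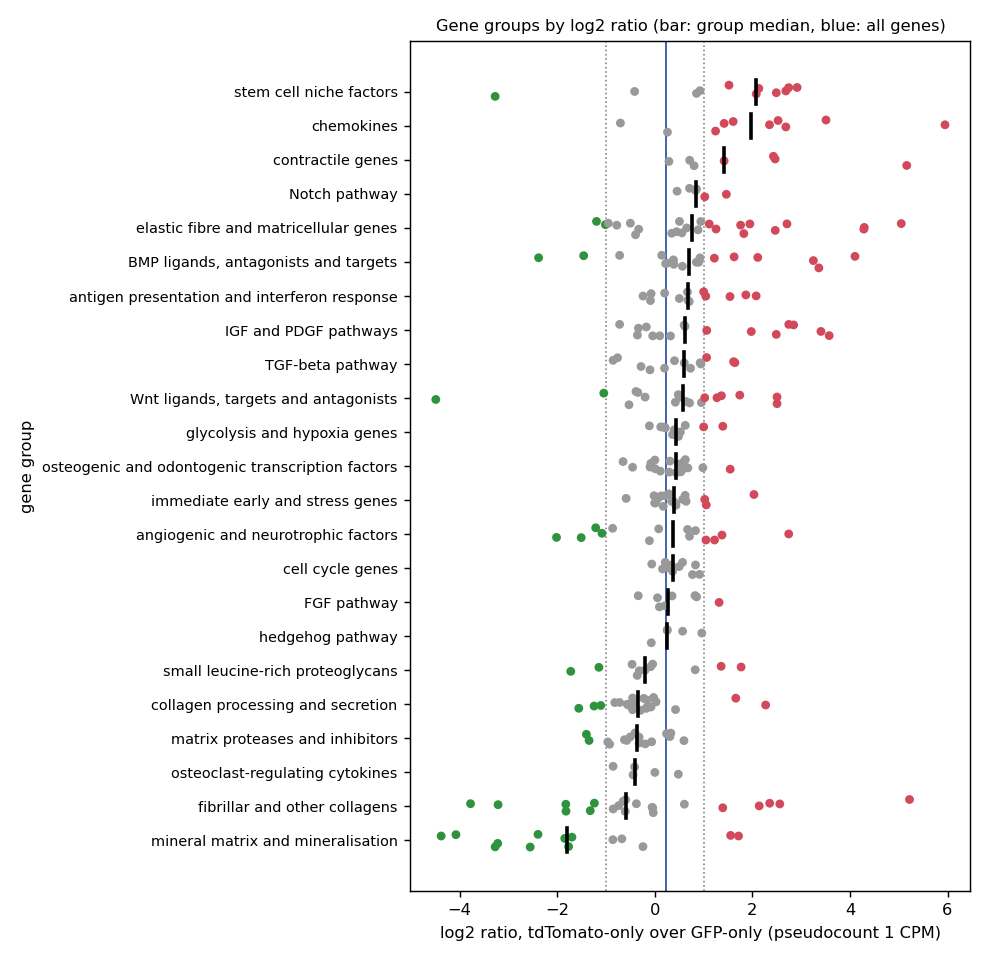
log2 ratio of tdTomato-only over GFP-only cells for the genes of 23 groups at 20 CPM or more, 1 point a gene (red at least 2-fold higher in tdTomato-only, green in GFP-only, grey between). Black bars are group medians, from -1.80 for mineral genes to 2.08 for niche factors, and the blue line is the median of all genes, 0.24.

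Marker lists describe the sets by cell type. The 7 osteoblast or cementoblast markers summed to 57930 CPM in GFP-only and 5577 CPM in tdTomato-only cells, and all 7 were higher in GFP-only cells, 5 by at least 2-fold. The 7 periodontal ligament markers summed to 11270 against 4734 CPM. Postn (7296 against 3190 CPM), Aspn and Bmp3 passed 2-fold, whereas Tnmd, a marker of tendon-type cells (66.8 CPM in GFP-only, 77.8 CPM in tdTomato-only), lay within it. All 8 dental pulp and all 4 dental follicle markers had higher CPM in tdTomato-only cells, although only 2 of 8 and 2 of 4 reached 20 CPM and 2-fold. Fgf3 rested on 2 against 4 UMIs. Unthinned shares of cells with a UMI were lower in tdTomato-only cells for Wif1 (84.2% against 96.0%), Sfrp4 (25.6% against 32.9%) and Smoc2 (34.9% against 52.5%). They were alike for Igfbp5 and Fgf3 and higher for the rest. Wif1 made up most of the follicle sum of 3286 against 1400 CPM.

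Markers of other cell types moved with the tdTomato-only set. In tdTomato-only against GFP-only cells, the connective tissue fibroblast list summed to 585 against 101 CPM, the mural list to 961 against 141 CPM, the Schwann and glia list to 571 against 92.9 CPM, the epithelial list to 357 against 76.6 CPM and the marrow stroma list to 221 against 34.8 CPM. Acta2 alone gave 590 of the 961 CPM of the mural list, and many of its UMIs lay in cluster 1, as given above. Ambn, a leading gene of the unnamed cluster 9, gave 85.0 of the 357 CPM of the epithelial list. The defining markers Dpp4 and Amelx were at 0 in GFP-only cells. In tdTomato-only cells Dpp4 had 48 UMIs, at least 35.9-fold more by the limit of 3 counts. Amelx had only 2 UMIs there, too few to show a difference. The part of these cells in the set difference was not tested beyond leaving their clusters out. Endothelial markers stood near 0 (6.92 and 3.44 CPM), as did macrophage markers (27.7 and 11.8 CPM) and lymphocyte markers (2.35 and 0.302 CPM), in which Cd3e was at 0 in both sets. Osteoclast markers summed to 575 and 686 CPM with Calcr at 0 in both, neutrophil markers to 31.8 and 51.1 CPM and erythroid markers to 1223 and 759 CPM. Without the clusters outside the tooth mesenchyme, 906 tdTomato-only and 1864 GFP-only cells remained, with a Cxcl12 log2 ratio of 2.20, a Col1a1 log2 ratio of -1.08, and 344 and 134 genes past 2-fold.

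Because the sets filled different clusters, they were also compared within clusters. Cluster 3 alone held at least 50 cells of both sets, 79 tdTomato-only and 76 GFP-only. It was led by Cxcl10, S100b, Bdnf and Ifit1 and raised 5 of 6 marrow stroma markers, though none of them led it. Of 5930 genes, 195 (3.29%) were at least 2-fold higher in its tdTomato-only cells and 76 (1.28%) in its GFP-only cells. Cxcl12 stood at 931 against 373 CPM (2.50-fold, 2.23 to 2.80), but 1 tdTomato-only cell held 16.2% of those UMIs and the median cells held 6 and 4 UMIs. Bglap stood at 2425 against 11202 CPM, with 7 and 81 UMIs in the median cell, and Bglap2 and Bglap3 differed likewise. Col1a1 stood at 14205 against 20358 CPM.

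The other genes furthest apart in cluster 3 rested on fewer cells. Towards tdTomato-only cells they were Rgs5, Cxcl14, Igfbp3, Hp and Cyp1b1, and 84.0% of the Rgs5 UMIs came from 1 cell. Igfbp3 stood at 462 against 42.7 CPM, in 43.0% against 18.4% of cells. Cyp1b1, a cytochrome P450, was in 32.9% against 5.26% of cells. Towards GFP-only cells, Tm4sf1, a tetraspanin-like membrane protein, stood at 195 against 20.8 CPM, in 52.6% against 24.1% of cells, while 65.0% of the Ifit3 UMIs came from 1 cell.

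With at least 20 cells of both sets, 9 clusters could be compared. Apart from the reporters, 0 of 4128 genes at 20 CPM in all 9 were at least 2-fold apart in the same direction in every cluster. Of the 400 genes higher in tdTomato-only cells over the whole sets, tdTomato left out, 61 (15.3%) had a mean log2 ratio of at least 1 over the clusters. Of 117 higher in GFP-only cells, eGFP left out, 37 (31.6%) had a mean of -1 or below. The medians moved from 1.58 to 0.45 and from -1.45 to -0.71. These genes were selected on the whole-set difference, which holds its medians away from 0 but not those of the clusters, so nothing is read from the drop.

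Cxcl12 differed to very different extents among the 9 clusters. Its mean log2 ratio was 0.74, from -0.23 to 2.13. In cluster 12 (Ostn, Gdf10) it stood at 391 CPM in tdTomato-only and 88.9 CPM in GFP-only cells, and in cluster 18, led by the cycling genes Hist1h2ap and Cenpf, at 131 against 45.3 CPM. In the Cxcl12-rich clusters 4 and 10 it stood at 1238 against 1266 CPM and 1733 against 1241 CPM, with median cells at 12 and 14 and at 17.5 and 17 UMIs. In the ligament-like cluster 0 both sets were low, 23.1 and 27.3 CPM, at or below the 33.2 CPM of macrophage-gated cells. The odontoblast-like cluster 11 was lower still, 11.6 and 10.9 CPM.

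Col1a1 also varied by cluster. Its log2 ratio was between -0.21 and 0.22 in clusters 0, 4, 6, 9 and 11, which include the ligament-like and odontoblast-like cells with 61031 against 59492 CPM and 71975 against 61752 CPM. It was -2.26, -1.48 and -1.40 in clusters 10, 12 and 18. In the ligament-like and odontoblast-like clusters the tdTomato-only level was 1.03-fold and 1.17-fold the GFP-only level.

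Few genes kept 1 direction throughout. Of the 4128 genes, 31 were above 0 in all 9 clusters and 17 below 0 in all 9, the reporters included. These genes were chosen for that pattern. Among the former were Mfap4 (mean log2 ratio 2.31), Fbln1 (1.18) and Fbn1 (1.01), listed with the elastic fibre and matricellular genes. Other genes of that list were mixed. Fbln5 and Eln were above 0 in 8 clusters and below in 1, and Fbln2 in 7 and 2. Mfap5 was above 0 in 2 and below in 5, and Tnxb in 1 and 3. Mfap4 was present in 56.8% of tdTomato-only and 23.2% of GFP-only cells of the ligament-like cluster, and stood at 69.4 against 21.6 CPM there. Lrba and Tpbg were also above 0 in all, with means of 0.75 and 0.74. Igf1 had ratios from 0.16 in cluster 10 to 3.24 in cluster 18.

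Bglap (mean -2.57) and Bglap3 (-1.82) were below 0 in all 9 clusters, with Ckb (-0.83), Srgap3 (-0.84), Wls (-0.61), which carries Wnt ligands out of the cell, and Trps1 (-0.50), a transcription factor of skeletal cells. For Bglap the summed level often came from a few cells. In clusters 0 and 9 the median cell of both sets held 3 Bglap UMIs, the median of macrophage-gated cells, and 1 GFP-only cell held 29.6% and 32.6% of the set's Bglap UMIs there. In cluster 4 that share was 59.3%, and the medians were 3 in tdTomato-only and 2 in GFP-only cells. In cluster 12 all 40 GFP-only cells had Bglap, with a median of 123 UMIs against 4 in the 57 tdTomato-only cells.

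Cluster 12 was the most divided by the share of genes past 2-fold. Of 6592 genes, 855 (13.0%) were at least 2-fold higher in its tdTomato-only and 386 (5.86%) in its GFP-only cells. Mfap4 stood at 1744 CPM in 94.7% of tdTomato-only cells and 6.24 CPM in 5.0% of GFP-only cells. The non-coding RNA Meg3 was in 91.2% against 2.5% of cells. Col8a1 had 427 UMIs in 71.9% of tdTomato-only cells and 0 UMIs in GFP-only cells. Ibsp stood at 29.4 CPM in the former and 4626 CPM in the latter, in 22.8% and 77.5% of cells. Of the sexed cells there, 17.0% of tdTomato-only and 42.9% of GFP-only cells were Xist-marked, and the part of sex in these differences was not tested.

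The other clusters differed less or rested on few cells. Towards tdTomato-only and GFP-only cells in turn, 1.33% and 1.31% of genes passed 2-fold in cluster 0, 1.82% and 1.09% in cluster 4, and 2.15% and 1.87% in cluster 6. The shares were 1.31% and 1.46% in cluster 9, 7.18% and 4.65% in cluster 10, 2.36% and 2.11% in cluster 11, and 7.34% and 5.81% in cluster 18. By these shares the ligament-like cells of both sets were among the most alike. Such a share also depends on the UMIs summed. For tdTomato-only and GFP-only cells in turn, these were 950618 and 8825217 in cluster 0 and 1068717 and 378634 in cluster 10. The part of counting error in the order of clusters was not tested. The tdTomato-only cells of cluster 0 had more Nts (278 against 39.1 CPM, in 56.8% against 23.2% of cells, with 34.8% of the tdTomato-only UMIs in 1 cell) and less Fmod, a ligament proteoglycan (173 against 854 CPM, in 64.9% against 86.7%). In cluster 6 (Pappa2, Tnmd), Notum, a Wnt deacylase, was in 6.38% of tdTomato-only and 35.4% of GFP-only cells, while 83.8% of its tdTomato-only Cxcl5 UMIs came from 1 cell. In cluster 18, Pthlh, a ligand of skeletal growth control, was in 76.2% against 14.3% of cells (281 against 10.1 CPM) and Col26a1 in 57.1% against 0%. The 42 GFP-only cells there had more Ibsp, Spp1 and Col2a1, of which 1 cell held 56.4%, 48.0% and 42.7%. Of the sexed cells in cluster 18, 21.1% of tdTomato-only and 55.3% of GFP-only cells were Xist-marked. These shares were 25.3% and 52.9% in cluster 10 and 55.4% and 78.3% in cluster 4. The part of sex in the differences of these clusters was not tested. In the odontoblast-like cluster 11 Dspp, the dentin phosphoprotein gene, stood at 132 against 882 CPM, in 9.68% and 12.9% of cells, and 72 of the 80 UMIs of tdTomato-only cells lay in 1 cell.

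**Figure D5:**
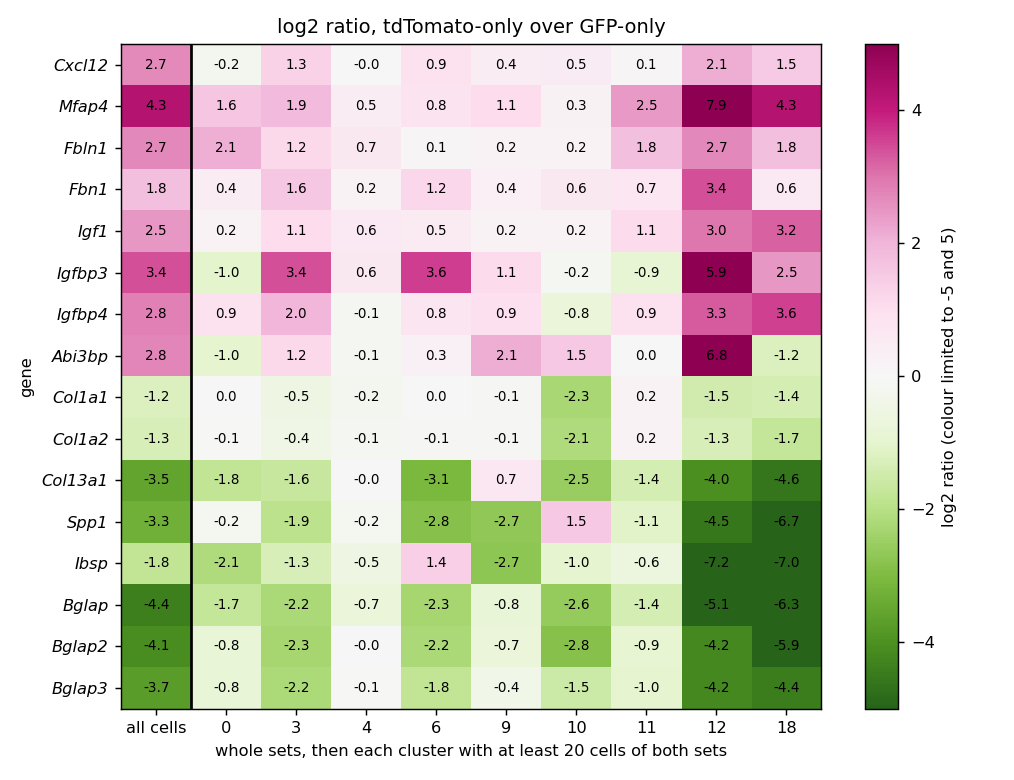
log2 ratio of tdTomato-only over GFP-only cells for 16 genes, over the whole sets (left column) and within each of 9 clusters, with colours limited to -5 and 5. Cxcl12 is 2.7 over the whole sets and from -0.2 to 2.1 within clusters, and Bglap is below 0 in every column.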

How the data were processed

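Cells of the P25 library were analysed from the deposited matrix of raw UMI counts, whose header gives software version 3.1.0. The submitters' processing notes name Cell Ranger, Seurat and mm10. How strands were counted is not stated by labels or headers, and the counts are not normalised. The members and the gene lists were chosen with earlier results of these data known.

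Counts were summed over each set and divided by the set's total UMIs (CPM). Poisson, conditional binomial and Clopper-Pearson 95% intervals are exact. A gene was called past 2-fold with at least 20 CPM in the higher set and 1 CPM added to both. Cells were clustered by Leiden (leidenalg 0.10.2) at resolution 1 on 2000 variable genes, 30 principal components and 15 neighbours. A cluster was named where at least 3 markers of a list were 2-fold higher in it and the list led its 10 top genes, thresholds set after the clusters were seen. No doublets were removed in the main results.

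Genes named were the reporters, Cxcl12, Col1a1, the marker genes, the 12 highest and 12 lowest ratios (at least 50 CPM, 50 UMIs and 10% of cells in the higher set), up to 8 genes a group by size, within clusters the 5 furthest each way and, for genes past 2-fold in every cluster, up to 10 each way. Only the reporters met the last, so genes of 1 sign in all 9 clusters are given, a rule set after their values were seen. A few others (Igf1 within clusters, and the 16 genes of the heat map) were chosen after their values were seen. Names of 2 list genes were matched through RefSeq synonyms, and Ltbp4 and Ccl19 were left out because each has 2 gene identifiers. On simulated counts for 5341 genes with 200 changed 4-fold, the whole-set contrast recovered 100% of them. The simulated sums had Poisson error only and no spread between cells or clusters. Recovery was thus near certain, and it checks the calculation rather than the ratios of the real cells.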

Additional observations from a re-analysis of the deposited data

Results flagged for a closer look

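A sequence for EYFP, a reporter that the genotype does not name, had 61 UMIs in 59 GFP-only cells (3.13%), 14 UMIs in cells with both reporters and 0 in tdTomato-only cells, where 3 counts of the total allow a share of up to 0.272% of cells with a UMI. It lies outside the comparisons of the report.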

How the results depend on the processing

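No paired analysis was possible because the comparison is between cells of 1 library. The 24 genes furthest apart kept their direction in all 408 values over 17 alternatives, and stayed at least 2-fold apart in 406. They were selected for their extreme ratios and recomputed on largely the same cells. This outcome was thus near certain in advance and is no support for them. The counts of genes at least 2-fold higher in tdTomato-only cells were 266 with a reporter threshold of 2 UMIs, 860 with at least 5 CPM and 1223 with no filter, and those in GFP-only cells 221 with no filter. The Cxcl12 log2 ratio was 1.79 and 3.24 with thresholds of 2 and 10 UMIs, 2.45 with the other reporter at 0, 2.32 with thresholds of 300 CPM, 2.53 as the mean of CPM per cell and 2.59 with 10 CPM added. Chosen after seeing the data, it was 2.82 in Xist-marked cells, 2.45 centred on the median gene, 2.20 without the clusters outside the tooth mesenchyme and 2.15 without the marrow stroma-like cluster. The Col1a1 log2 ratio was -0.88 with a threshold of 2 UMIs, -0.99 with the other reporter at 0, -1.34 per cell, -1.10 and -1.39 in Xist-marked and Y-marked cells, -1.47 centred and -1.08 without the clusters outside the tooth mesenchyme. Within clusters, Cxcl12 averaged 1.32 in the 1 cluster with 50 cells of both sets, 0.74 over 9 with 20 and 1.05 over 3 at resolution 0.5, and Col1a1 averaged -0.52, -0.63 and -0.94. The share of cells in clusters with at least 90% of 1 set was 46.7% and 55.6% at resolutions 0.5 and 1.5. Shares of cells with a Cxcl12 UMI were 75.2% and 43.2% without thinning. Removing the 256 highest doublet scores of 5657 cells left 1078 and 1812 cells, with 416 and 122 genes past 2-fold and log2 ratios of 2.76 for Cxcl12 and -1.24 for Col1a1.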
